A study of Mus musculus with 6 samples.

Results

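The genes described here are 10 genes grouped as immediate early AP-1 and Egr genes, chosen by symbol from the 45703 genes of a count table: Fos, Fosb, Fosl1, Fosl2, Junb, Jund, Egr1, Egr3, Ier2 and Arc. The name is that of the group, and the induction of each gene was not tested. RNA sequencing had been used to profile which cells grow in a 7-day mixed primary culture of mouse dorsal root ganglia, which hold the cell bodies of sensory neurons and their glia. All 6 libraries belong to 1 group of replicate cultures. The animals were adult C57BL/6 mice of wild type genotype, 4 to 6 weeks old. The cells were kept on poly-L-lysine in medium with 10% fetal calf serum, which also held EGF and FGF at 10 ng/ml, and each RNA sample came from 2 dishes. No untreated, serum-free or earlier sample was analysed here, so the values are levels in growth medium and not responses to a stimulus.

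Immediate early genes are transcribed within minutes of a stimulus, without prior protein synthesis, when kinase pathways such as ERK activate factors already bound at their promoters. Proteins of the Fos family pair with proteins of the Jun family through leucine zippers to form AP-1, a transcription factor that binds DNA as a dimer. Egr proteins are zinc finger transcription factors induced by growth factors and by neuronal activity. In peripheral nerve, Jun and Fos family genes are known from the response of neurons and Schwann cells to injury.

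The libraries held 20070639 to 22968642 counts, so 1 count was worth 0.0435 to 0.0498 CPM (counts of a gene scaled to a common library total). All 10 genes passed the low-count filter, which kept 14998 genes. A CPM of at least 1 in all 6 libraries was reached by 8 of the 10 genes, against 30.4% of all genes in the table; Fosb and Arc did not reach it. The glial markers of the culture were high, with summed CPM of Sox10, Erbb3, Cdh19 and Foxd3 between 2191 and 3216. The 6 neuronal markers summed to 864 to 1817 CPM, so transcripts of both were present in every library. Culture 5 stood apart: its summed fibroblast markers reached 13967 CPM, against 3338 to 7446 in the other cultures. In such bulk samples, fewer cells of a type and less RNA per cell cannot be told apart.

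The RefSeq table of promoter sequences (GRCm38.p6) held 5 of the 10 genes. The stretches before the start of Fos and Junb are shown because these are a Fos and a Jun gene whose levels moved differently between the cultures. Both are written 5′ to 3′ on the strand of the gene, 200 bases each. Capitals mark matches on either strand to a cyclic AMP response core, a TATA box or a GC box, whose letters are given after the sequences.
Fos, chr12:85473690-85473889, plus strand: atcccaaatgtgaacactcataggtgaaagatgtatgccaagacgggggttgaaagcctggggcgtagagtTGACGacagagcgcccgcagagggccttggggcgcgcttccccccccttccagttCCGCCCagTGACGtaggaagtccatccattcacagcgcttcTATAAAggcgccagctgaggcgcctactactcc
Junb, chr8:84978749-84978948, minus strand: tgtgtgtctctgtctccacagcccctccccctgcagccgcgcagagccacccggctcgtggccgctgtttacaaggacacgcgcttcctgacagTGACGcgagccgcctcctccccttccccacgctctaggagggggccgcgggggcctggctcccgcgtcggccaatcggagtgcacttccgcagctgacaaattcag

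Motifs were searched on both strands of the whole 300-base window, from 250 bases before to 50 bases after the annotated start. The core element, TGACG, was held by Fos at 129 and 66 bases before the start. Fos held the TATA box, TATAAA, at 33 bases before it, each distance counted to the first base of the match. Junb held the core element at 106 bases before the start. It also held the TATA box at its annotated first base, outside the stretch shown; GENCODE M21 places the first base of Junb 30 bases further downstream. Of all 32851 windows in the table, 20.8% held the core element, 13.6% the TATA box and 35.7% the GC box (GGGCGG, found in Fos at 74 bases before the start). The full response element (TGACGTCA), which contains the core element, was found in neither window and in 1.79% of all windows. The motif known for AP-1 binding, TGANTCA, was in neither and in 7.81% of all windows. The CArG box, the motif of serum response factor, occurred in 1.63% of all windows and was not matched in either. A match is a description of letters, and the window does not reach the more distant elements of these genes.

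Fos family transcripts were dominated by Fos and Fosl2. Fos (c-Fos, the founding partner of Jun in AP-1; chromosome 12, 85473890 to 85477274) was counted at 249, 215, 260.0, 157, 256 and 162 CPM in cultures 1 to 6. Cultures 4 and 6 were low and the other 4 higher. Its mean was 216 ± 47.0 CPM (SD, n = 6), a spread of 1.66-fold between the lowest and the highest culture. Fosl2 (Fra-2, a Fos protein that lacks the strong activation domain of Fos; chromosome 5, 32136472 to 32157840) was counted at 523, 486, 441, 464, 547 and 453 CPM. It was the steadiest of the 10 genes, with a mean of 486 ± 41.6 CPM (SD, n = 6) and 1.24-fold between the extremes.

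Fosl1 (Fra-1, a Fos protein often linked to sustained ERK signalling; chromosome 19, 5447698 to 5455938) was counted at 45.5, 26.1, 18.5, 38.5, 38.0 and 23.6 CPM. It was high in cultures 1, 4 and 5 and lowest in culture 3, and averaged 31.7 ± 10.5 CPM (SD, n = 6). Fosl1 overlaps Ccdc85b, a gene on the opposite strand, over 2776 bases. Ccdc85b averaged 8.40 ± 0.903 CPM (SD, n = 6). The strand setting of the counting is not given in the sources used here, so reads of the 2 genes cannot be told apart with certainty. Fosb (a Fos protein whose stable splice form is known from chronic stimulation of neurons; chromosome 7, 19302696 to 19310118) was near the limit of the depth, with 14, 17, 24, 21, 36 and 33 counts, or 0.610 to 1.72 CPM. It was lowest in culture 1 and highest in cultures 5 and 6.

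Levels of different genes were compared per kilobase of combined exon length, an annotated length that need not be that of the transcripts expressed. On that scale Fos took 49.8% ± 5.66 of the summed Fos family level, Fosl2 40.9% ± 3.93, Fosl1 9.11% ± 2.73 and Fosb 0.149% ± 0.0626 (SD, n = 6). Fos and Fosl2 together held between 87.04% and 94.7% of it. The sum itself lay between 168 and 237 CPM per kb.

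**Figure D1:**
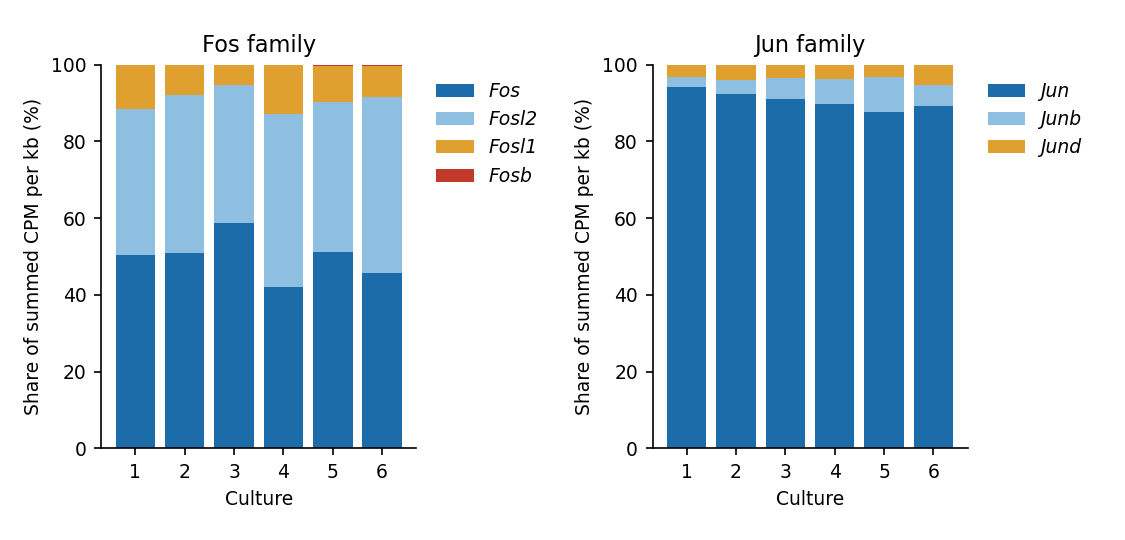
Share of each gene (y axis, percent) in the summed CPM per kb of the Fos family (left) and of the Jun family (right) in each of the 6 cultures (x axis); each bar is 1 culture. Fos and Fosl2 fill 87.04% to 94.7% of the left bars, and Jun, which is not among the 10 genes, fills 87.8% to 94.2% of the right bars.

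The Jun genes among the 10 were lower per kilobase than Fos and Fosl2 in every library, with at most 17.9 CPM per kb against at least 74.4. Junb (an AP-1 partner that can oppose Jun at some promoters; chromosome 8, 84976909 to 84978748) was counted at 11.9, 16.4, 20.9, 22.7, 32.9 and 18.9 CPM. It was lowest in culture 1 and highest in culture 5, with 2.77-fold between them and a mean of 20.6 ± 7.09 CPM (SD, n = 6). Jund (a Jun protein usually present without a stimulus; chromosome 8, 70697739 to 70700616) was counted at 21.99, 27.6, 20.4, 21.5, 17.7 and 30.05 CPM. It ran the other way from Junb in culture 5, where it was lowest, and averaged 23.2 ± 4.65 CPM (SD, n = 6). Jun itself, the third gene of the family, was counted at 727, 706, 598, 558, 550 and 556 CPM. Per kilobase, Jun held 90.7% ± 2.27 of the Jun family level, Junb 5.43% ± 2.23 and Jund 3.82% ± 0.827 (SD, n = 6).

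Counts of Jund were fractional in 2 libraries and those of Fosl2 and Egr3 in 1 each, and how such reads were divided is not given in the sources used here. The per-length value of Jund depends on the annotation. The deposited table gives Jund 2878 bases of exon, whereas GENCODE M21 gives 1668. With the GENCODE length Jund averaged 13.9 ± 2.79 CPM per kb in place of 8.07 ± 1.61 (SD, n = 6). Junb hardly moved, at 11.4 ± 3.92 against 11.2 ± 3.85 CPM per kb, so the order of the 2 genes turned. Junb, Jund and Ier2 consist of a single exon in GENCODE M21, and the other 7 genes are spliced.

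Egr1 (a zinc finger factor and a common readout of ERK activity; chromosome 18, 34861207 to 34864956) varied most. It was counted at 12.8, 40.8, 80.3, 23.3, 271 and 19.7 CPM in cultures 1 to 6. Culture 5 was far above the rest and culture 3 came next. The highest culture exceeded the lowest 21.2-fold, and 6.27-fold without culture 5. The coefficient of variation (SD over mean) was 133%, and of the 14998 genes kept by the filter 8, Egr1 included, had a value at least that large. By edgeR's gene-wise estimate, the biological coefficient of variation of Egr1 was 0.898, against 0.151 on the trend of genes with similar abundance.

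Egr3 (a related factor, itself a target of Egr1 in some cells and needed for muscle spindle innervation; chromosome 14, 70077317 to 70082613) was counted at 18.3, 17.6, 16.3, 21.6, 43.6 and 15.0 CPM. Culture 5 was alone in being high: the spread was 2.90-fold over all cultures and 1.44-fold without culture 5. The ratio of Egr1 to Egr3, per kilobase, ran from 0.941 in culture 1 to 8.38 in culture 5 and was 6.63 in culture 3. Culture 3 thus had the next highest Egr1 and, at 16.3 CPM, the next to lowest Egr3.

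Ier2 (a small nuclear protein induced by growth factors; chromosome 8, 84661331 to 84662852) was counted at 5.22, 8.79, 12.8, 9.72, 24.8 and 8.13 CPM. Like Junb and Egr1 it was lowest in culture 1 and highest in culture 5, with 4.75-fold between them and 2.45-fold without culture 5. Arc (a synaptic protein whose transcript marks active neurons; chromosome 15, 74669081 to 74672570) was close to the limit of the depth, with 19, 22, 26, 14, 50 and 11 counts. Culture 5 was highest at 2.39 CPM and the other cultures lay between 0.526 and 1.20 CPM.

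Ordered by mean level per kilobase, the genes ran Fos (103 ± 22.3 CPM per kb), Fosl2 (82.8 ± 7.10), Egr1 (24.3 ± 32.3), Fosl1 (18.6 ± 6.14), Junb (11.2 ± 3.85), Jund (8.07 ± 1.61), Ier2 (7.61 ± 4.56), Egr3 (5.34 ± 2.60), Arc (0.362 ± 0.219) and Fosb (0.296 ± 0.113) (SD, n = 6). Fos stood above 96.4% and Fosl2 above 95.2% of the 13911 genes with at least 1 CPM in every library, and Jund, at 49.8%, was near their middle. Of the 9 pairs of neighbours in this order, 2 kept 1 direction in all 6 libraries: Fosl2 over Egr1 and Egr3 over Arc. Fosl2 exceeded Egr1 by 2.59 ± 1.56 and Egr3 exceeded Arc by 3.57 ± 0.341 (difference of log2 CPM per kb with a pseudocount of 0.1, SD, n = 6; two-sided exact sign-flip permutation, p = 0.0312 and adjusted p = 0.141 for both). The value 0.0312 is the smallest that 6 libraries allow, and after adjustment 0 of the 9 pairs passed 0.05. Both pairs lay at that smallest value and still adjusted to 0.141, so the test had little room to pass. Those 2 pairs were also the only ones under an unadjusted 0.05. The other 7 neighbours had unadjusted exact sign-flip permutation p from 0.0625 to 0.625, which does not show that their levels are equal. Among them, Fosl1 exceeded Junb and Ier2 exceeded Egr3 in 5 of 6 libraries each. Fos exceeded Fosl2 in 4 of 6 libraries, and the mean difference over all 6 was 0.28 ± 0.29. Egr1 exceeded Fosl1 in 2 of 6, cultures 3 and 5, although its mean was higher. That place in the order rests on culture 5 and on the exon length: without culture 5 Egr1 averaged 11.5 ± 8.83 and Fosl1 17.9 ± 6.56 CPM per kb (SD, n = 5), and with GENCODE lengths the means over all cultures were 16.7 and 17.01.

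**Figure D2:**
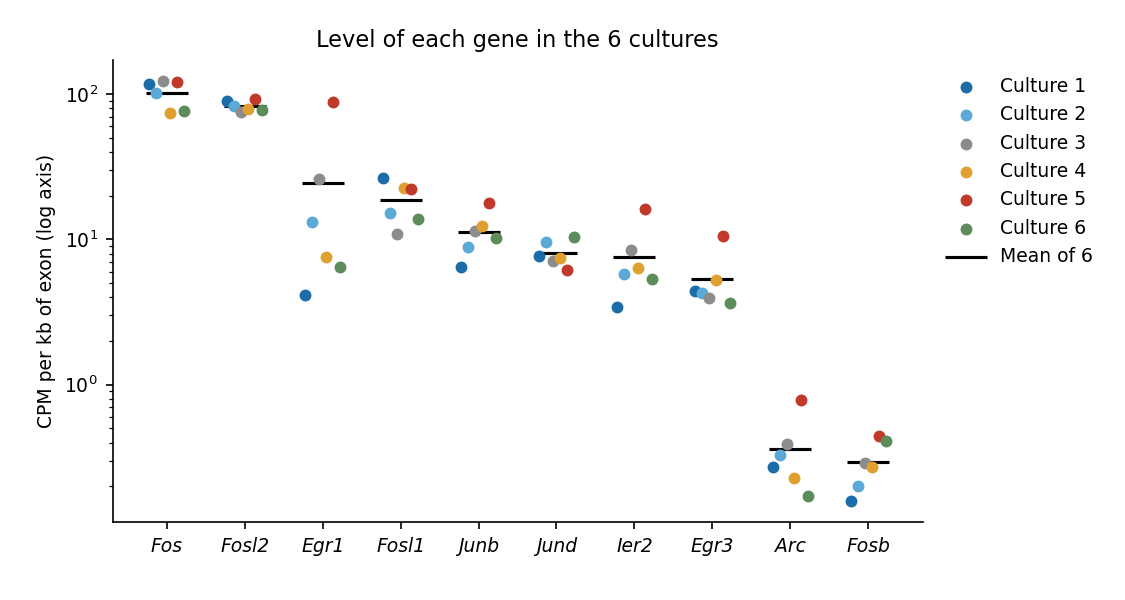
CPM per kb of exon (y axis, log scale) of the 10 genes, ordered by mean; each point is 1 culture and the black line is the mean of the 6. The points of Fosl2 lie close together (75.1 to 93.3), those of Egr1 spread from 4.17 to 88.3, and Arc and Fosb lie under 1.

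Spread between cultures exceeded counting noise for all 10 genes. A chi-square test of the 6 counts of each gene against the scaled library sizes, adjusted by the Benjamini-Hochberg method over all 14998 genes, called 10 of 10, against a background of 76.3% of genes. With 1 library left out, Arc was not called without culture 5 (adjusted p = 0.212) and Fosb was not called without culture 1 (adjusted p = 0.0530). The labels do not say that the cultures came from separate animals, so these values measure the spread between samples only. The median highest-to-lowest ratio of the 10 was 2.79, against 1.38 over all genes kept. The median coefficient of variation was 36.4% against 12.1%. These medians were not matched for level. Against the edgeR trend of genes with similar abundance, the biological coefficient of variation of Fosl2 was lower (0.122 against 0.171). Jund (0.202 against 0.200) and Fosb (0.308 against 0.279) were near the trend, and the remaining genes lay above it, up to Egr1 (0.898 against 0.151). By the plain coefficient of variation, 68.5% of the kept genes varied at least as much as Fosl2 and 24.5% at least as much as Fos. The shares were 4.39% for Egr3, 3.03% for Ier2 and 2.99% for Arc. These shares were not matched for level either, and Arc had only 11 to 50 counts per library.

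Culture 5 held the highest CPM of 7 of the 10 genes: Fosb, Fosl2, Junb, Egr1, Egr3, Ier2 and Arc. Over all genes kept, 29.2% were highest in culture 5. The number was 7 with TMM scaling as well, and 8 with DESeq2 size factors, where the highest culture of Fos changed from 3 to 5. Lowest in culture 1 and highest in culture 5 were 4 genes, Fosb, Junb, Egr1 and Ier2, a pattern found in 12.9% of all genes kept. Fosb's place in both tallies rests on few counts: 14 and 17 in cultures 1 and 2, and 36 and 33 in cultures 5 and 6. Fos was highest in culture 3, Fosl1 in culture 1 and Jund in culture 6. Fos and Fosl1 were still above their means in culture 5, by 0.26 and 0.31 log2 units, whereas Jund was lowest there. Some of these places rest on small differences. Fos had 260.0 CPM in culture 3 and 256 CPM in culture 5, and Fosl2 had 547 CPM in culture 5 and 523 CPM in culture 1.

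Markers of non-neural cells moved the same way between these cultures. The 6 fibroblast markers summed to 3338 CPM in culture 1 and 13967 in culture 5, and all 6 were lowest in culture 1. The 5 mural markers summed to 204 and 1789 CPM, the 4 endothelial markers to 6.31 and 100.2 CPM and the 6 macrophage markers to 45.3 and 443 CPM. Lowest in culture 1 were all 5 mural and all 6 macrophage markers, but only 2 of the 4 endothelial markers. Highest in culture 5 were 4 of the 5, 4 of the 6 and all 4 of these. Pecam1 and Kdr were at most 14.9 and 7.55 CPM in any library, and Aif1 was under 1 CPM in all. The glial markers ran the other way, from 3022 CPM in culture 1 to 2191 in culture 5. Egr1 did not follow the markers in every culture: culture 4 had the next highest fibroblast sum, 7446 CPM, and 23.3 CPM of Egr1, whereas culture 3 had 4429 CPM of fibroblast markers and 80.3 CPM of Egr1. Culture 3 held the highest neuronal sum, 1817 CPM, and culture 5 the lowest, 864 CPM. The part of these cell types in the levels of the 10 genes was not tested.

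**Figure D3:**
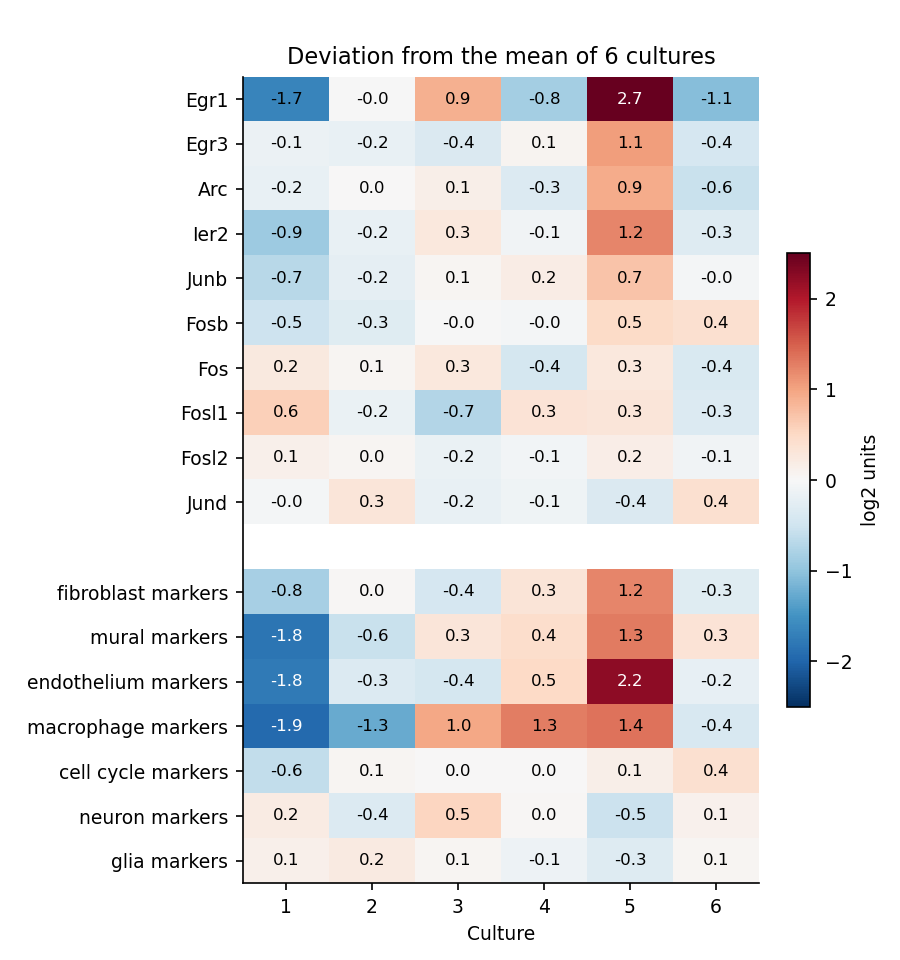
Deviation of each gene's log2 CPM (TMM-scaled, pseudocount 0.5) from its mean over the 6 cultures (x axis), above, and the same for the log2 of the summed CPM of 7 marker lists, below; red is above and blue below the mean, in log2 units. Egr1 spans -1.66 in culture 1 to 2.67 in culture 5, Fosl2 stays between -0.17 and 0.16, and the non-neural marker lists are low in culture 1 and high in culture 5.

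Across the 6 cultures, all 45 pairs of the 10 genes were compared by correlation of log2 CPM. Egr1, Egr3, Arc, Ier2 and Junb, a set picked after the values were seen, had r from 0.62 to 0.96 in their 10 pairs, and 6 of the 10 stayed positive when the 2 farthest cultures were left out. Jund, also singled out after the values were seen, had a negative r with each of the other 9 genes, from -0.72 to -0.14. Of those 9 pairs, 1 was positive, at 0.27, when the 2 farthest cultures were left out. Egr1 and Arc had r = 0.92 (exact permutation p = 0.0139, adjusted over 45 pairs 0.312) and rho = 0.83 (exact permutation p = 0.0583, adjusted 0.438). Without cultures 3 and 5, the farthest from the median of Egr1, r was 0.46. Egr1 and Egr3 had r = 0.73 (exact permutation p = 0.117, adjusted 0.350) and rho = 0.31 (exact permutation p = 0.564, adjusted 0.819), and r was 0.07 without the same cultures. With culture 5 alone left out r was -0.31, and with culture 3 alone left out it was 0.90, so the positive relation rests on culture 5.

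By r, the relations named for Fos were weaker. Fos with Egr1 gave r = 0.50 (exact permutation p = 0.307, adjusted 0.562) and rho = 0.54 (exact permutation p = 0.297, adjusted 0.704). Fos with Ier2 gave r = 0.27 (exact permutation p = 0.624, adjusted 0.850) and rho = 0.43 (exact permutation p = 0.419, adjusted 0.755). Fos with Fosb gave r = -0.24 (exact permutation p = 0.618, adjusted 0.850) and rho = 0.20 (exact permutation p = 0.714, adjusted 0.945). Fos with Junb gave r = -0.07 (exact permutation p = 0.826, adjusted 0.899) and rho = 0.09 (exact permutation p = 0.919, adjusted 1). Without cultures 4 and 6, these 4 values of r were 0.22, 0.25, 0.37 and 0.25. The highest r of Fos was with Arc, a pair named after its value was seen, at 0.70 (exact permutation p = 0.1125, adjusted 0.350). The rho of Fos and Arc was 0.83 (exact permutation p = 0.0583, adjusted 0.438), and r was 0.32 without cultures 4 and 6.

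Fosl1 and Fosl2 gave r = 0.76 (exact permutation p = 0.0972, adjusted 0.350) and rho = 0.71 (exact permutation p = 0.136, adjusted 0.438), with r = 0.40 when cultures 1 and 3 were left out. Junb and Jund gave r = -0.51 (exact permutation p = 0.312, adjusted 0.562) and rho = -0.71 (exact permutation p = 0.136, adjusted 0.438), with r = -0.74 when cultures 1 and 5 were left out. The closest pair, named after its value was seen, was Egr1 and Ier2, at r = 0.96 (exact permutation p = 0.00417, adjusted 0.188) and rho = 0.94 (exact permutation p = 0.0167, adjusted 0.438), with r = 0.77 without cultures 3 and 5. None of the 45 pairs passed 0.05 after adjustment by exact permutation. The smallest p that 720 pairings allow is 0.00278, which adjusts to 0.125 unless at least 3 pairs reach it, so the test had little room to pass. Of the 45 pairs, 4 were under an unadjusted 0.05 for r and 2 for rho. The sign of r changed in 17 of the 45 pairs when the 2 farthest cultures were left out. The labels give no culture or sequencing batch, so no value could be recomputed within batches.

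**Figure D4:**
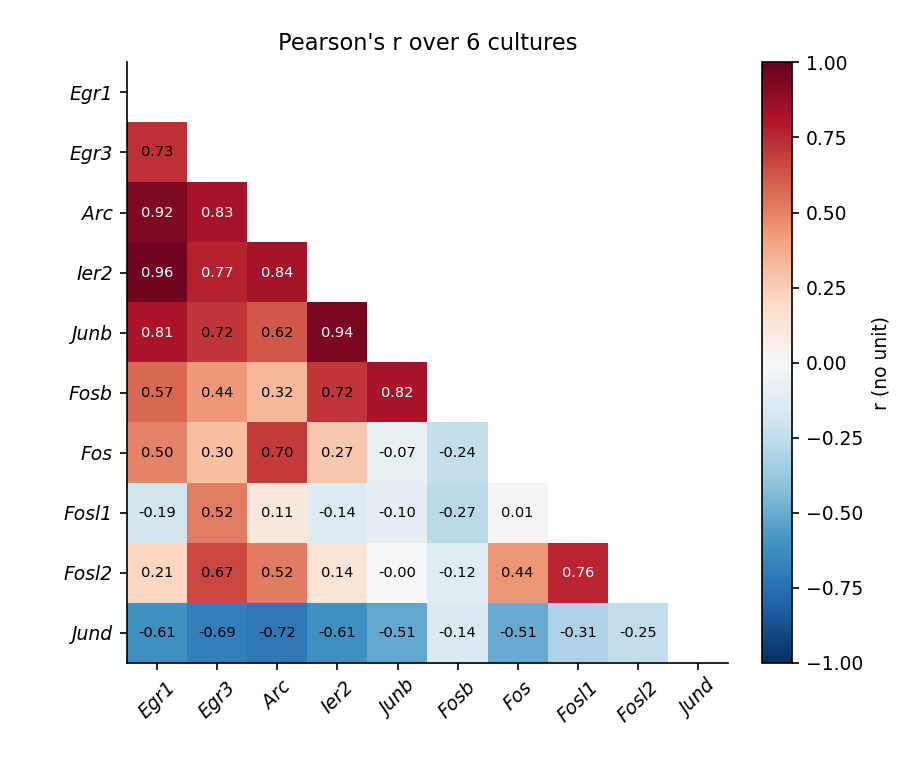
Pearson's r of log2 CPM (TMM-scaled, pseudocount 0.5) over the 6 cultures for each of the 45 pairs of the 10 genes, with genes on both axes and r as colour and number. Egr1, Egr3, Arc, Ier2 and Junb are red among themselves (0.62 to 0.96), and the row of Jund is blue throughout (-0.72 to -0.14).

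Among the 11936 other genes with a mean CPM of at least 5, those most alike in pattern to Egr1 by Pearson's r over the 6 cultures were Banp (r = 0.99), Gtf2e2 (0.98) and Cdk8 (0.98). These genes spanned small ranges: Banp ran from 15.0 to 23.03 CPM, so a high r does not mean a like size of change. Most alike to Egr3 was Ier5, itself an immediate early gene, with r = 1.00 and 19.3 to 35.7 CPM. Closest to Junb were Ror1 and Boc (both r = 1.00), cell surface receptors that ran from 1.26 to 18.8 and from 2.87 to 23.6 CPM. For Fos the closest was Adck2 (r = 0.99), and for Ier2 it was Rin2 (0.99). For Arc the closest was Tmem39b, at r = 0.977. Values this high do not set any of the 10 genes apart, and all are given as a description.

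The other partners of AP-1 differed widely in level. Of 12 further genes of the bZIP class (the basic leucine zipper proteins), 9 had at least 1 CPM in all 6 libraries, against 30.4% of all genes in the table. All 9 that were tested varied beyond counting noise, against a background of 76.3% of genes kept. Atf3, a stress and axon injury factor, was highest at 244 ± 73.6 CPM per kb, followed by Jun at 193 ± 25.2, Atf4, the effector of the integrated stress response, at 143 ± 15.8, and Atf7 at 21.5 CPM per kb (SD, n = 6). Atf3 was counted at 714, 573, 511, 348, 395 and 349 CPM in cultures 1 to 6. Culture 1 was thus highest for Atf3 and Jun, while it was lowest for Junb, Egr1 and Ier2. Batf, Batf2 and Batf3, factors of immune cells, had at most 7, 6 and 9 counts in any library.

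Among the Egr genes and their corepressors, Egr2 (Krox20, the factor that drives myelination in Schwann cells) was highest per kilobase, at 28.1 ± 7.06 CPM per kb (SD, n = 6). Egr2 was counted at 73.2, 99.1, 110.3, 126, 147 and 85.6 CPM, lowest in culture 1 and highest in culture 5 like Egr1, but with 2.01-fold between them in place of 21.2-fold. The corepressors Nab2 and Nab1 were at 15.4 and 9.71 CPM per kb. Egr4 had at most 1 count in any library and was not detectable at this depth.

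Of 23 further immediate early genes, all had at least 1 CPM in all libraries, against 30.4% of all genes. Of the 23, 22 varied beyond counting noise, against 76.3% of genes kept, Homer1 being the exception (chi-square, adjusted p = 0.244). The highest per kilobase were Ccn1 (101 ± 49.4 CPM per kb), Ccn2 (94.6 ± 65.5), Klf6 (86.1 ± 4.51) and Plk2 (67.6) (SD, n = 6). Ccn1 and Ccn2, secreted matricellular proteins, ran from 49.9 and 29.1 CPM in culture 1 to 349 and 464 CPM in culture 5. Klf6 lay between 338 and 393 CPM in all cultures. Highest in culture 5 were 14 of the 23 genes and lowest in culture 1 were 9, against 29.2% and 23.8% of all genes kept. The median coefficient of variation of the 23 was 23.4%. Ptgs2, the inducible cyclooxygenase, was singled out after its values were seen: it ran from 2.83 CPM in culture 1 to 204 CPM in culture 5.

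The 13 upstream factors and kinases, among them Srf and Elk1, which bind the serum response element, had a median coefficient of variation of 9.88%, below the 12.1% of all genes kept. The ERK kinase gene Mapk3 was highest of these at 259.8 CPM per kb, followed by the stress kinases Mapk14 and Mapk9 at 28.7 and 20.9. Variation beyond counting noise was called for 11 of the 13 against 76.3% of all genes, and not for Elk1 (chi-square, adjusted p = 0.703) and Mapk7 (adjusted p = 0.828). Of 9 genes commonly described as AP-1 targets, 7 were kept by the filter, and 5 of those 7 were highest in culture 5, against 29.2% of all genes kept. The fibroblast and mural marker sums were also highest in culture 5, at 13967 and 1789 CPM, and their part in these genes was not tested. Ccnd1 (cyclin D1), Timp1, Cd44 and Hmga1 were the highest per kilobase, at 202, 192, 111 and 66.3 CPM per kb. Timp1, a protease inhibitor, ran from 73.7 CPM in culture 1 to 323 CPM in culture 5, whereas Ccnd1 lay between 666 and 927 CPM and was highest in culture 6.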

How the data were processed

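The table used here holds the estimated counts per gene that the authors deposited for 6 libraries, with 0 further columns of per-sample values; 13.4% to 14.7% of the values of each library were not whole. Per the submitters' processing notes, bcl2fastq 2.20.0.422, cutadapt 2.5, STAR 2.7.2b and featureCounts 1.6.4 of Subread were used with GRCm38.p6; strand and multi-mapping settings are not given in the sources used here. Per the labels' protocols, the library kit keeps strand and captures poly-A RNA, the input was 500 ng, and RIN was at least 8.7.

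CPM was computed on plain library totals, and CPM per kb on the combined exon length that the file header names. Counts were rounded for edgeR 4.0.16 (filterByExpr, TMM, gene-wise dispersion) and DESeq2 1.42.0 (size factors) in R 4.3.3. Variation was tested by a chi-square test per gene, checked on simulated data, with Benjamini-Hochberg adjustment over all genes kept. Differences between neighbours were tested by sign-flip over 64 patterns and relations over 720 pairings. The 10 genes, the lists and the tests were chosen with earlier results of these data known. Named genes were the 10 genes, 8 relations, the 4 highest and the undetected genes of each list, and the genes most alike in pattern. Genes that escaped a list's call, Ptgs2, the pair Egr1 and Ier2 and the pair Fos and Arc were named after their values were seen. GENCODE M21 exon lengths were an alternative chosen after the data were seen. 1 gene of the glial markers and 1 of the upstream list are not reported here and enter no list value.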

Additional observations from a re-analysis of the deposited data

Results flagged for a closer look

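Dixon's ratio, the distance of the most extreme culture from the next as a part of the whole range, was computed for the CPM of each of the 10 genes. It passed the critical value, 0.625, in 3 genes, where chance alone would give 0.5 of 10 if values were normally distributed. The genes are not independent, and CPM was not log-transformed here, so the count depends on the scale. In log2 units from its mean, Egr1 lay at 2.67 in culture 5, 0.90 in culture 3 and -1.66 in culture 1. Culture 5 was the extreme library each time. For Egr1 the ratio was 0.739, with 271 CPM in culture 5 and 80.3 CPM in the next. For Egr3 it was 0.768, with 43.6 against 21.6 CPM, and for Arc 0.638, with 2.39 against 1.20 CPM. Ier2 fell just short, at 0.615. Culture 5 also held the highest summed fibroblast, mural, endothelial and macrophage markers, and their part in these values was not tested.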

How the results depend on the processing

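No paired analysis was possible because all 6 libraries belong to 1 group. The number of the 10 genes that varied beyond counting noise was 10 with DESeq2 size factors, plain totals, no filter or counts rounded down, and 9 to 10 with a replicate left out. Pairs of neighbours past the threshold were 0 in every alternative run, which says little. In the main run 2 pairs at the smallest exact sign-flip p, 0.0312, adjusted to 0.141. With 5 libraries the sign-flip test cannot go below 0.0625. Pairs with 1 direction in all libraries numbered 2 to 3. Relations past the threshold were 0 throughout, which says little: over 45 pairs a single pair at the smallest exact permutation p, 0.00278, adjusts to 0.125, and with 5 libraries the smallest p is 0.0167. The number of genes detected was 8, or 10 with at least 10 counts as the criterion. Of 81 alternative values for differences between neighbours, 3 reversed: Egr1 minus Fosl1, -0.38, became 5.72 on untransformed CPM per kb and lay between -0.85 (without replicate 5) and 0.076 (without replicate 1) with a replicate left out, and Junb minus Jund, 0.42, became -0.33 with GENCODE exon lengths. Of 72 values for the 8 named relations, 5 reversed, all with a replicate left out. Over those fits, r of Fos and Fosb ran from -0.64 to 0.062 (without replicate 6), r of Fos and Junb from -0.60 to 0.31 (without replicate 1; 0.10 without replicate 4), r of Fos and Ier2 from -0.12 (without replicate 5) to 0.68, and r of Egr1 and Egr3 from -0.31 (without replicate 5) to 0.90. The cause was not tested, except that the GENCODE length of Jund is shorter. The highest-to-lowest ratio moved by over 1.5 times for Egr1 (21.2; 13.7 without replicate 1, 6.27 without replicate 5), Egr3 (2.90; 1.44 without replicate 5), Ier2 (4.75; 3.06 without replicate 1, 2.45 without replicate 5) and Arc (4.54; 2.28 without replicate 5). Depth limits Fosb and Arc, which had 11 to 50 counts per library.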
